A study of Mus musculus with 12 samples.

Results

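Tumors from mice given a blocking antibody to CSF1R, the receptor of colony stimulating factor 1, were compared with tumors given a control IgG, across every expressed gene. The libraries were taken by the treatment in the sample labels, 3 tumors per group, which made 6 of the 12 bulk RNA libraries of the study. The other libraries came from tumors treated with IL-10-Fc or BF10. They counted toward the expression filter and entered the model to share its estimate of the spread. All 6 tumors were grown from 4T1 cells, a mouse mammary carcinoma line, injected at the orthotopic site of Balb/c mice that were 6 to 8 weeks old when bought, so that host and tumor line were otherwise the same in both groups. The treated group, called aCSF1R, received an antibody of clone AFS98, and the control group received what the labels call an IgG1-Fc isotype control. Dosing began at a tumor size of 100 mm3. The labels give 6 doses while the series description and the methods give fewer, so the number of doses behind these libraries is uncertain. Tumors were taken whole, without sorting, and nothing in the labels tells which mouse or cage a tumor came from, so the p-values measure the spread between tumors as sampled here.

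CSF1R is the receptor tyrosine kinase through which CSF1 and IL-34 keep monocytes and macrophages alive and drive their differentiation. Tumor-associated macrophages depend on it to differing degrees, and blocking antibodies against it are used to reduce them. Neutrophils, lymphocytes and carcinoma cells do not in general rely on this receptor. Macrophages carry a set of transcripts that other cells of a tumor largely lack, among them scavenger receptors, Fc receptors, C1q chains and lysosomal cysteine proteases, and a bulk library records the sum of all cells. In such a library fewer cells of a type and less RNA per cell cannot be told apart.

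The unit throughout is TPM, which here means the deposited FPKM value divided by the FPKM sum of its library and brought to 1000000 per library. Changes are differences of log2(TPM + 1), aCSF1R minus control, from limma. A gene was called at a Benjamini-Hochberg adjusted p below 0.05 over all 15504 tested genes and a fold difference of 1.5 or more. The libraries fell into 2 sets that cut across the treatments unevenly, a division drawn only once the values had been looked at. Control replicate 5 and aCSF1R replicates 4 and 6 had FPKM sums of 609695 to 629766 and are called lower-sum libraries. Control replicates 4 and 7 and aCSF1R replicate 8 had sums of 891627 to 921581 and are called higher-sum libraries. Mitochondrial genes held 3.14% to 3.45% of the sum in the lower-sum libraries and 6.84% to 9.26% in the others. Pearson's r across genes, which are not independent replicates, was 0.954 to 0.981 for the 6 pairs of libraries in the same set and 0.876 to 0.911 for the 9 pairs in different sets. Because the sets are split unevenly over the treatments, a fit without a term for the set carries part of any difference between them. The counts below come from such a fit. Results of a second fit with such a term, and the change within each set, stand beside them. The term was estimated from all 12 libraries, so in the second fit the other treatment groups also shaped the changes. Within the lower-sum set the change compares 2 treated tumors with 1 control, and within the higher-sum set 1 treated tumor with 2 controls, with no test.

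Expression of 88 genes was lower in aCSF1R tumors and of 0 genes higher, 0.568% and 0% of the genes tested. At an unadjusted p below 0.05, limma gave 397 lower and 140 higher genes, 537 together, and no other test was run. The 537 are a smaller share of the tested genes than the 0.05 that such a limit passes on average when no gene differs. With the library set term 300 genes were lower (1.93%) and 12 higher (0.0774%), and the 300 included all 88. The 88 genes had a median change of -2.41 and ranged from -1.25 to -4.74. The median over all tested genes was 0.24, and 0.0068 with the set term. In mean TPM, 81 of them were more than 4-fold lower and 33 more than 8-fold lower. Their median level was 33.6, 25.4 and 32.9 TPM in control replicates 4, 5 and 7, and 5.95, 4.25 and 4.62 TPM in aCSF1R replicates 4, 6 and 8. Each treated tumor was the lowest for part of the genes: replicate 8 for 43, replicate 6 for 33 and replicate 4 for 12. The groups did not overlap in any of the 88 genes, against 3.68% of all tested genes whose groups did not overlap in this direction and 5.28% in either. The 88 were called on these same values, so their separation is no further support for the calls. Without overlap the change within each set must be negative too, so that sign adds nothing for the 88 genes. Their median changes were -2.12 in the lower-sum and -2.55 in the higher-sum libraries, and 73 of them changed more in the latter. Over all tested genes the medians within these sets were 0.017 and -0.16, so a general offset has the same direction. A difference between the sets themselves was called for 19 of the 88 and for 9180 of all tested genes. By gene type, 82 of the 88 were protein coding.

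**Figure D1:**
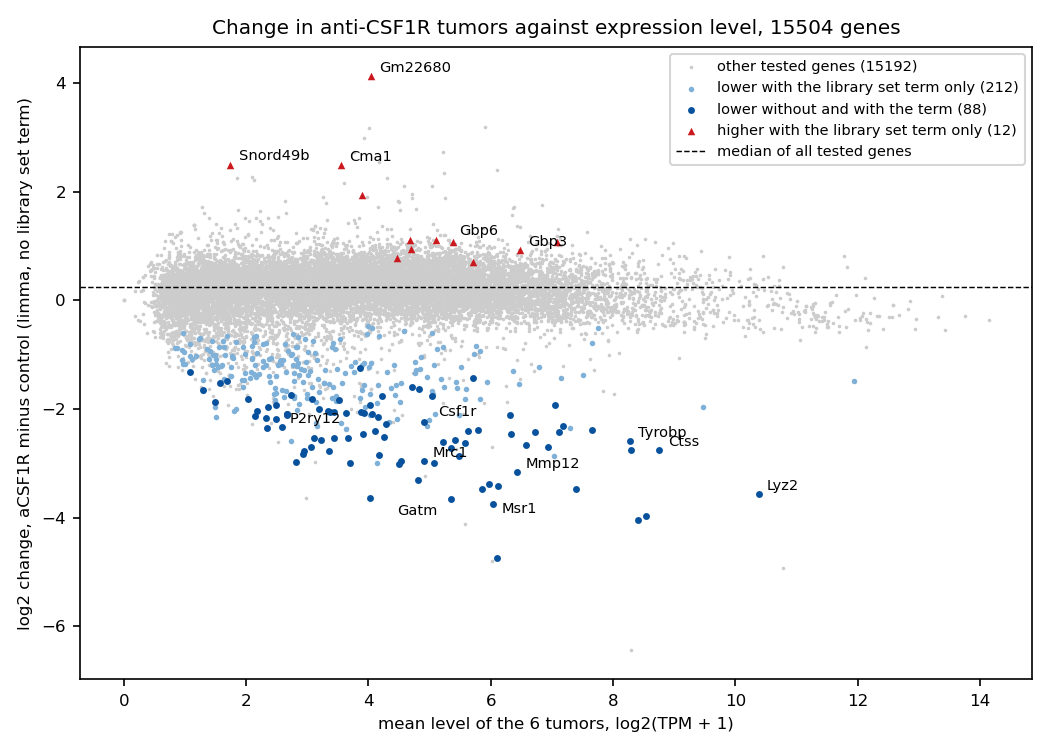
Log2 change in aCSF1R against control tumors (limma, no library set term) for the 15504 tested genes, plotted against the mean level of the 6 tumors as log2(TPM + 1). Each point is a gene; dark blue marks the 88 lower genes, light blue the 212 lower only with the library set term and red triangles the 12 higher only with that term, and the dashed line is the median of all tested genes at 0.24.

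The targeted receptor itself was examined first. Csf1r was at 18.8, 92.7 and 38.4 TPM in control replicates 4, 5 and 7 and at 20.6, 14.1 and 1.26 TPM in aCSF1R replicates 4, 6 and 8. The groups overlapped, because control replicate 4 lay just under aCSF1R replicate 4, and no call was made (change -2.21, SE 0.91, limma adjusted p = 0.893). Compared inside a set, the treated tumors were lower in both, by -2.37 and -3.63, and with the library set term the gene was called (-2.89, adjusted p = 0.00131). The antibody acts on the protein, so this transcript is not a measure of blockade. Whether fewer cells carried it or each cell held less of it cannot be told apart here.

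Among the ligands and receptors of the family, Csf1 had a change of 0.92 (adjusted p = 0.893) and Il34, the alternative ligand, of 0.41 (adjusted p = 0.893). Csf1 illustrates the sets: it stood at 17.5 and 19.2 TPM in the higher-sum controls and 18.6 TPM in the higher-sum treated tumor, but at 129 to 139 TPM in the lower-sum libraries of either treatment. Csf2ra, the alpha chain of the GM-CSF receptor, was lower with the library set term (-2.16, adjusted p = 0.00752) and not without it. Csf3, which encodes G-CSF, stood at 110, 53.9 and 73.0 TPM in controls and 131, 124 and 320 TPM in treated tumors, groups that did not overlap, with a change that missed the threshold in both fits (1.19 and 1.43, adjusted p = 0.893 and 0.525). In all, 0 of the 9 ligands and receptors were called without the set term and 2 with it, Csf1r and Csf2ra.

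Of 14 tested core macrophage markers, 5 were lower without the library set term (Msr1, Lyz2, Fcgr1, Mrc1 and Adgre1) and 10 with it, and all 14 had a negative change (median -1.43). The summed level of the list, most of which was Lyz2 in every tumor, was 2248 to 3643 TPM in controls and 225 to 393 TPM in treated tumors. Msr1, the class A scavenger receptor, lies at chr8:39581685-39642673 (GRCm38, minus strand, 11 exon blocks). It was at 148, 103 and 114 TPM in controls and 7.59, 7.61 and 8.75 TPM in treated tumors, 15.2-fold lower in mean TPM (change -3.75, SE 0.22, adjusted p = 6.4e-05). The 3 treated tumors were almost equal, and every control was far above them. Lyz2, lysozyme, the most abundant transcript of the list, went from 2309, 1812 and 3259 TPM to 254, 181 and 174 TPM (change -3.57, SE 0.33, adjusted p = 0.000641). Mrc1, the mannose receptor, went from 45.9, 45.4 and 65.8 TPM to 7.98, 6.82 and 3.40 TPM (change -2.96, SE 0.30, adjusted p = 0.00111). Adgre1, which encodes F4/80, was close to the threshold (change -2.05, adjusted p = 0.0492) and was no longer called in 10 of the 12 repeats of the fit with a library removed. Controls were tightly grouped at 15.9 to 16.7 TPM, while treated tumors ranged from 1.44 to 6.00 TPM.

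The macrophage markers did not all behave in the same way. Cd68, Siglec1, C5ar1 and Itgam were among those lower with the library set term only; Cd68, for example, was at 33.8, 84.1 and 36.7 TPM in controls and 31.2, 21.4 and 6.63 TPM in treated tumors (change with the term -1.88, adjusted p = 0.00416). Mertk, an efferocytosis receptor, and Cd163, the haemoglobin scavenger receptor, were called in neither fit, with changes of -0.41 and -0.73, and their groups overlapped. Cd14, the lipopolysaccharide co-receptor, was at 45.8 to 71.3 TPM in controls and 24.1 to 40.7 TPM in treated tumors, a change of -0.74 (adjusted p = 0.735). Marco was under the filter on low values, listed at 0 in all 3 treated tumors and in control replicate 5, at 0.022 TPM in control replicate 4 and at 1.43 TPM in control replicate 7.

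**Figure D2:**
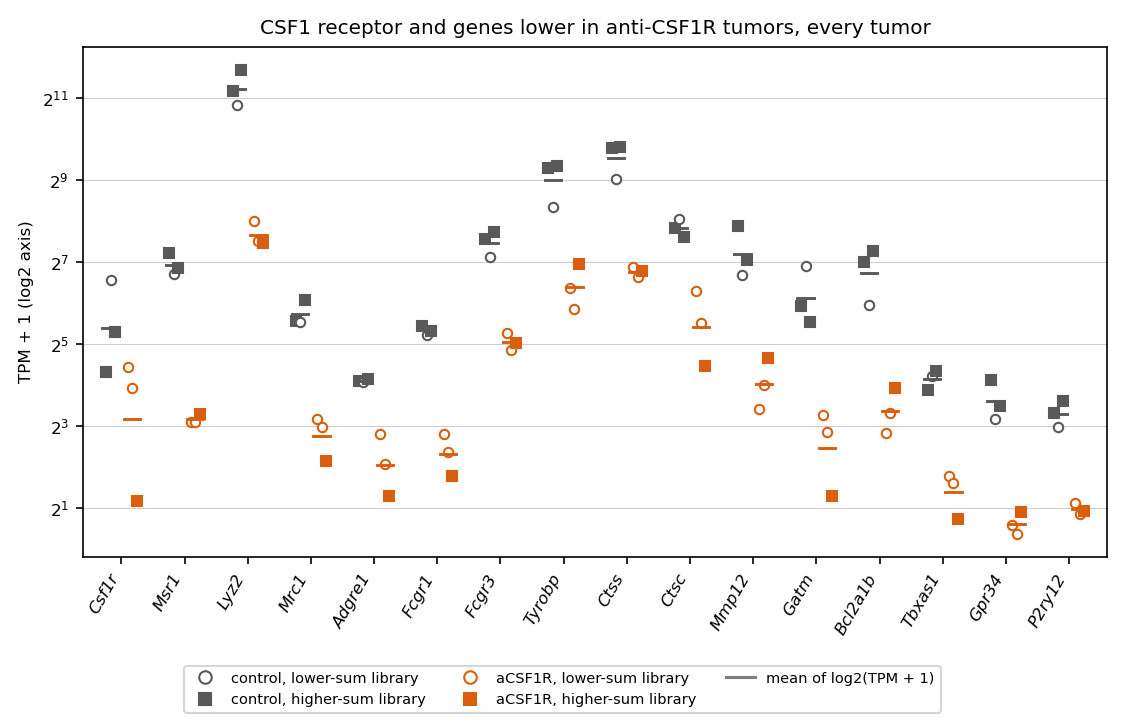
TPM + 1 on a log2 axis for Csf1r and 15 lower genes in each of the 6 tumors. Circles are lower-sum and squares higher-sum libraries, grey is control and orange aCSF1R, and the bars are means of log2(TPM + 1); apart from Csf1r, every treated tumor lies below every control.

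Receptors for the constant part of IgG were lower almost as a group. Fcgr1, Fcgr2b, Fcgr3, Fcgr4 and the shared signalling chain Fcer1g were called among 6 tested genes, with a list median of -2.34. Fcgr1, the high-affinity receptor, was at 42.5, 36.4 and 38.7 TPM in controls and 5.98, 4.17 and 2.45 TPM in treated tumors (change -3.01, SE 0.27, adjusted p = 0.000459). The inhibitory receptor Fcgr2b changed least of the 5, from 223, 167 and 236 TPM to 60.8, 47.2 and 52.7 TPM (change -1.94, SE 0.22, adjusted p = 0.00241). Fcgrt, the neonatal Fc receptor of many cell types, was not called (change -0.89, adjusted p = 0.779). Tyrobp, the adaptor that carries the signal of many myeloid receptors, went from 622, 323 and 640 TPM to 81.2, 56.5 and 123 TPM (change -2.60, SE 0.38, adjusted p = 0.00905). Its partner Trem2 was lower with the library set term only (-2.41, adjusted p = 0.000552). In the list of TREM2 and lipid-handling genes, Tyrobp was the only call of 16 without the set term (list median -0.06). With it Trem2 and Apoe, the lipid carrier apolipoprotein E, were lower too, and 12 of 16 changes were negative (median -0.11). Spp1, osteopontin, which carcinoma cells also make, was at 5360.2 to 10286 TPM in controls and 4119 to 13949 TPM in treated tumors, with no call (change -0.34, adjusted p = 0.893).

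Other families of myeloid surface receptors showed the same direction in most members. Of the MS4A genes 3 of 10 were lower without the set term and 6 with it (median -1.66), of the C-type lectins 3 and 4 of 12 (median -1.15), of the paired immunoglobulin-like receptors 2 and 4 of 12 (median -0.83), of the SLAM receptors 1 and 4 of 7 (median -0.86), and of the purinergic and related receptors 3 and 6 of 9 (median -1.21). Slamf9 was among the deepest changes, at 33.7, 18.2 and 35.3 TPM in controls and 1.89, 1.48 and 0.77 TPM in treated tumors (-3.63, SE 0.37, adjusted p = 0.00111). P2ry12, an ADP receptor known from microglia, went from 9.02, 6.86 and 11.1 TPM to 1.17, 0.80 and 0.91 TPM (-2.33, SE 0.25, adjusted p = 0.00158). Gpr34, a lysophosphatidylserine receptor on chromosome X, was 21.1-fold lower in mean TPM (-2.98, SE 0.31, adjusted p = 0.00111). Clec4a2 (-3.32) and Clec5a (-2.96) led the C-type lectins, and Lair1, an inhibitory collagen receptor, was lower by a change of -3.0. Sirpb1a, Sirpb1b, Sirpb1c and Gm5150 on chromosome 3 were all lower, but they are close relatives whose reads can be shared between copies, so their single values are uncertain. Klra2 and Klrb1b, lectin-like receptors of a family best known from natural killer cells, were lower (-2.53 and -2.10), and the natural killer cell markers as a list had 0 of 8 calls without the set term and 1 with it, the receptor Klrk1 (list medians -0.23 and -0.15).

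Chemokines and their receptors held 5 calls in 17 tested genes and 8 with the set term (median -1.67). Beside Ccl12, the calls included Ccl6, the platelet factor Pf4, which macrophages also make, and the receptor Ccr2. Ccr2, the receptor of CCL2 on classical monocytes, was at 88.2, 56.9 and 72.2 TPM in controls and 13.8, 9.23 and 11 TPM in treated tumors (-2.57, SE 0.27, adjusted p = 0.00137). Its ligands Ccl2 and Ccl7 were not called (-0.32 and -0.81) and their groups overlapped. Ly6c2, a marker of the same classical monocytes, was at 27.4, 9.51 and 37.6 TPM in controls and 13.2, 15.3 and 34.0 TPM in treated tumors, a change of -0.17 (adjusted p = 0.922). Cx3cr1, which marks non-classical monocytes and many resident macrophages, was at 3.15, 25.7 and 3.91 TPM in controls and 0.52, 0.57 and 0.054 TPM in treated tumors and was called only with the set term (-3.17, adjusted p = 0.00172). Over the 13 monocyte genes the median change was -0.07, with 1 call without and 3 with the set term. Ccl5, a chemokine of T cells among others, had a positive change of 1.3 that was not called (adjusted p = 0.893).

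Of 22 lysosomal genes, 2 were lower without the set term and 5 with it. Ctss, cathepsin S, which trims the invariant chain of MHC class II, was the most abundant, at 870, 514 and 884 TPM in controls and 117, 97.8 and 108 TPM in treated tumors (-2.76, SE 0.24, adjusted p = 0.000459). Ctsc, which activates granule serine proteases, was lower too (-2.42, adjusted p = 0.0176). The other 20 lysosomal genes had no call without the set term, and 3 of them had one with it, Ctsh and Lgmn among them; Ctsl, Cd63 and Lamp1 had changes of 0.16, 0.41 and 0.16, so the list median was -0.24. Among the called genes outside that list, Tbxas1, thromboxane synthase, went from 13.6, 17.7 and 19.3 TPM to 2.45, 2.05 and 0.66 TPM (-2.77, SE 0.33, adjusted p = 0.00249). Hpgds, the hematopoietic prostaglandin D synthase, went from 6.99, 7.61 and 7.68 TPM to 1.46, 0.51 and 0.20 TPM (-2.36, SE 0.29, adjusted p = 0.00318). Cysltr1, a receptor for cysteinyl leukotrienes, was 11.9-fold lower in mean TPM (-2.69, adjusted p = 0.00564).

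Gatm, which makes guanidinoacetate from arginine in the synthesis of creatine, had one of the deepest changes, from 59.9, 118 and 45.4 TPM to 8.62, 6.23 and 1.44 TPM (-3.65, SE 0.60, adjusted p = 0.0197). Arginase, Arg1, followed with the set term only, from 202, 370 and 201 TPM to 76.9, 60.2 and 22.7 TPM (-2.75 with the term, adjusted p = 0.000529). Nos2, which makes nitric oxide from the same amino acid, had a positive change of 2.10 that was not called (adjusted p = 0.893), with 99.0 and 61.6 TPM in the lower-sum treated tumors and 5.69 TPM in the other. Mmp12, macrophage elastase, was at 232, 101 and 131 TPM in controls and 9.69, 14.9 and 24.3 TPM in treated tumors (-3.17, SE 0.41, adjusted p = 0.00427), and was the only call among 13 metalloproteinases and inhibitors, whose median was 0.38. The anti-apoptotic genes Bcl2a1a, Bcl2a1b and Bcl2a1d were all lower (-2.99, -3.37 and -2.72). They lie in tandem on chromosome 9, and reads from such similar copies can be split between them, so their single values are uncertain. Properdin, Cfp, a positive regulator of the alternative complement pathway, was lower (-2.40, adjusted p = 0.00246), as were the 3 C1q chains (-3.47 to -4.05), while the other 12 complement genes had no call without the set term.

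Regulators showed smaller numbers. Tfec, a relative of Mitf found mainly in macrophages, was the only one of 14 myeloid transcription factors called without the set term, at 9.26, 6.97 and 8.5 TPM in controls and 1.01, 1.07 and 1.00 TPM in treated tumors (-2.18, SE 0.25, adjusted p = 0.00249). Spi1, which encodes PU.1, the lineage factor of macrophages, was at 23.2, 46.7 and 33.6 TPM in controls and 13.9, 8.96 and 4.47 TPM in treated tumors, and was called with the set term (-2.13, adjusted p = 0.0027), as were Irf5 and Maf. The groups did not overlap for Spi1, which was not called without the term (-1.87, adjusted p = 0.161). Of the phagocyte NADPH oxidase, 0 of 6 subunits were called without the term and 4 with it, among them Cybb, Ncf1 and Ncf4, and all 6 had a negative change with a median of -1.26. Of 14 Toll-like receptors and adaptors, 4 were called with the term, Tlr1, Tlr7, Tlr8 and Tlr13, while Tlr2 and Tlr4 had changes of 0.24 and -0.34. Pycard, the inflammasome adaptor ASC, was lower (-2.41, adjusted p = 0.00158), and Il1b and Il18 were not called. The subunit Il10ra of the interleukin-10 receptor was lower with the set term only (-2.12, adjusted p = 0.000409).

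Several of the 88 genes are neighbours in the genome. Joining called genes that lay within 1000000 bases of each other gave 14 clusters that together held 39 of the 88. The largest spanned chr1:170277320-172478575 (GRCm38) with 7 genes, Sh2d1b1, Fcgr2b, Fcgr4, Fcgr3, Fcer1g, Cd84 and Slamf9. Families of neighbouring copies made up several of the others, such as Ms4a6b, Ms4a6c and Ms4a6d on chromosome 19, C1qa, C1qb and C1qc on chromosome 4, P2ry12 with P2ry13 on chromosome 3, and Clec4a2 with Clec4n on chromosome 6. These counts are a description with no test.

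Promoter sequence was examined because PU.1 is known to bind a purine-rich core near the start of many myeloid genes. A window from 250 bases before to 50 after the start (RefSeq, GRCm38.p6) was at hand for 66 of the 88 genes and for 10611 of the tested genes. The letters GAGGAAGT, on either strand, occurred in 13 of the 66 genes (19.7%) and in 4.01% of the 10611. The shorter GAGGAA, which lies within it, occurred in 59.1% and 31.0%, and among the 300 genes lower with the set term the longer motif occurred in 13.2% of those with a window. A match of letters is a description and was not tested, and no binding was measured. The 200 bases before the start of 8 of the 13 genes follow, 5′ to 3′ along the gene, with GAGGAAGT or its reverse complement in capitals; they show the motif from 8 bases before the start in Slamf9 to 195 in C1qc, and in a pair of related copies, Bcl2a1a and Bcl2a1d.
Slamf9, chr1:172475160-172475359 (plus strand): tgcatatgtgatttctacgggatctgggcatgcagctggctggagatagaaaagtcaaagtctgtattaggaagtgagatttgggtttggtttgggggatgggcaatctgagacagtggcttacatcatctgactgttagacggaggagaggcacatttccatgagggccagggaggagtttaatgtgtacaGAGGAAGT
Fcgr4, chr1:171018726-171018925 (plus strand): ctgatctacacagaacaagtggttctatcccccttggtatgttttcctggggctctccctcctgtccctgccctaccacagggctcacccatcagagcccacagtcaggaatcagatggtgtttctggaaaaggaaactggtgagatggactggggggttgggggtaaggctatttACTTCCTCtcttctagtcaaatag
Pf4, chr5:90772235-90772434 (plus strand): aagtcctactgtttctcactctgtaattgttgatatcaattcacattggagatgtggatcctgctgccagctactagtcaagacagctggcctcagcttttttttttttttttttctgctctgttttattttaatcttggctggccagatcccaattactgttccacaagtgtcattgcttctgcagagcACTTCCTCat
Mmp12, chr9:7344197-7344396 (plus strand): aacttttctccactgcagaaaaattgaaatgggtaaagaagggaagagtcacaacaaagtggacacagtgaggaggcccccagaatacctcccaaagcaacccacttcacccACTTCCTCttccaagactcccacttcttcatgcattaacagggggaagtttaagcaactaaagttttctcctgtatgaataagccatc
Pycard, chr7:127993868-127994067 (minus strand): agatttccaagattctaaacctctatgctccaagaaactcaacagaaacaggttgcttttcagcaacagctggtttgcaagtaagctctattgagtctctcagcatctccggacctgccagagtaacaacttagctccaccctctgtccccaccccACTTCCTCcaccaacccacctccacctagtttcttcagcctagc
C1qc, chr4:136892915-136893114 (minus strand): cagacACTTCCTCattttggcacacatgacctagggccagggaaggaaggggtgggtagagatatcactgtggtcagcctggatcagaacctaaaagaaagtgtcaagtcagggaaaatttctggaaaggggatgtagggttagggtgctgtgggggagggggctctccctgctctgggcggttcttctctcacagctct
Bcl2a1a, chr9:88956720-88956919 (plus strand): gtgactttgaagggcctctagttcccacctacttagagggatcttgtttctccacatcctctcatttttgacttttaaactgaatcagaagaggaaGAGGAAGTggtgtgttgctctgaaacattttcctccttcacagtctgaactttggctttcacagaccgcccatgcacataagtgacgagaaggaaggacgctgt
Bcl2a1d, chr9:88731851-88732050 (minus strand): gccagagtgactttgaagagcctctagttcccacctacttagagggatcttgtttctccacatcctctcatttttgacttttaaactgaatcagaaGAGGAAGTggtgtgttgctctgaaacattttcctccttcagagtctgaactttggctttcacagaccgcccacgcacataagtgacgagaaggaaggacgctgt
In Fcgr4 the capitals began 24 bases before the start, in Pf4 10, in Pycard 44 and in Mmp12 88. The 13 genes include all 3 Bcl2a1 copies, which are not independent occurrences. Bcl2a1a and Bcl2a1d both held the motif 104 bases before the start and shared a run of 84 identical bases, and Bcl2a1a shared a run of 124 with Bcl2a1b, so the share of 19.7% counts related sequence more than once.

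Few genes of antigen presentation and lymphocytes were called. Of 12 MHC class II presentation genes, Ctss was the only call without the set term (list median -0.07), and with it Ifi30, a lysosomal thiol reductase, was lower too, 11 of 12 changes were negative and the median was -0.32. H2-Aa, an MHC class II chain, was at 1708, 800.3 and 2058 TPM in controls and 877, 884 and 1696 TPM in treated tumors, groups that overlapped (-0.37, adjusted p = 0.893), and Cd74, the invariant chain, had a change of 0.19 (adjusted p = 0.93). None of 12 T cell markers was called in either fit, with 6 negative changes without the set term (median 0.00) and 10 with it (median -0.28), and no marker's groups were separated; Cd8a, for example, was at 2.59, 3.13 and 2.72 TPM in controls and 5.22, 6.02 and 1.35 TPM in treated tumors. Gzmb, granzyme B, had a change of 1.41 that was not called (adjusted p = 0.697). Its values of 12.2, 25.2 and 12 TPM in controls and 20.5, 71.2 and 53.2 TPM in treated tumors overlapped through control replicate 5. Neutrophil markers had 0 calls of 15 in both fits (median 0.11); S100a8 and S100a9, calprotectin, ranged most in the treated tumors, S100a8 from 143 to 1363 TPM. Among checkpoint genes Cd86, the costimulatory ligand on antigen-presenting cells, was lower (-1.84, adjusted p = 0.0171), and Cd274 and Pdcd1 were not called (0.59 and 0.37).

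Markers of the other cells of the tumor were examined beside these changes. Carcinoma keratins were high in all 6 tumors, as the tissue label implies: Krt18 was at 521 to 1026 TPM in controls and 372 to 1059.6 TPM in treated tumors (0.11, adjusted p = 0.923). No fibroblast, endothelial, epithelial, adipocyte, muscle or erythrocyte marker was called in either fit. All 5 tested B cell and plasma cell genes had a negative change with 0 calls (median -1.59), and the summed level of the list was high in control replicate 7 alone (1428 TPM), where Igkc stood at 849 TPM against 17.2 to 111 TPM in the other 5 tumors, and adipocyte genes such as Adipoq were high in control replicate 7 (19.4 TPM) and aCSF1R replicates 4 and 6 (29.6 and 47.1 TPM). Their part in the other results was not tested. Proliferation genes had 0 calls of 14; Mki67 was at 53.3 to 62.6 TPM in controls and 61.5 to 69.2 TPM in treated tumors (0.17, adjusted p = 0.893).

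**Figure D3:**
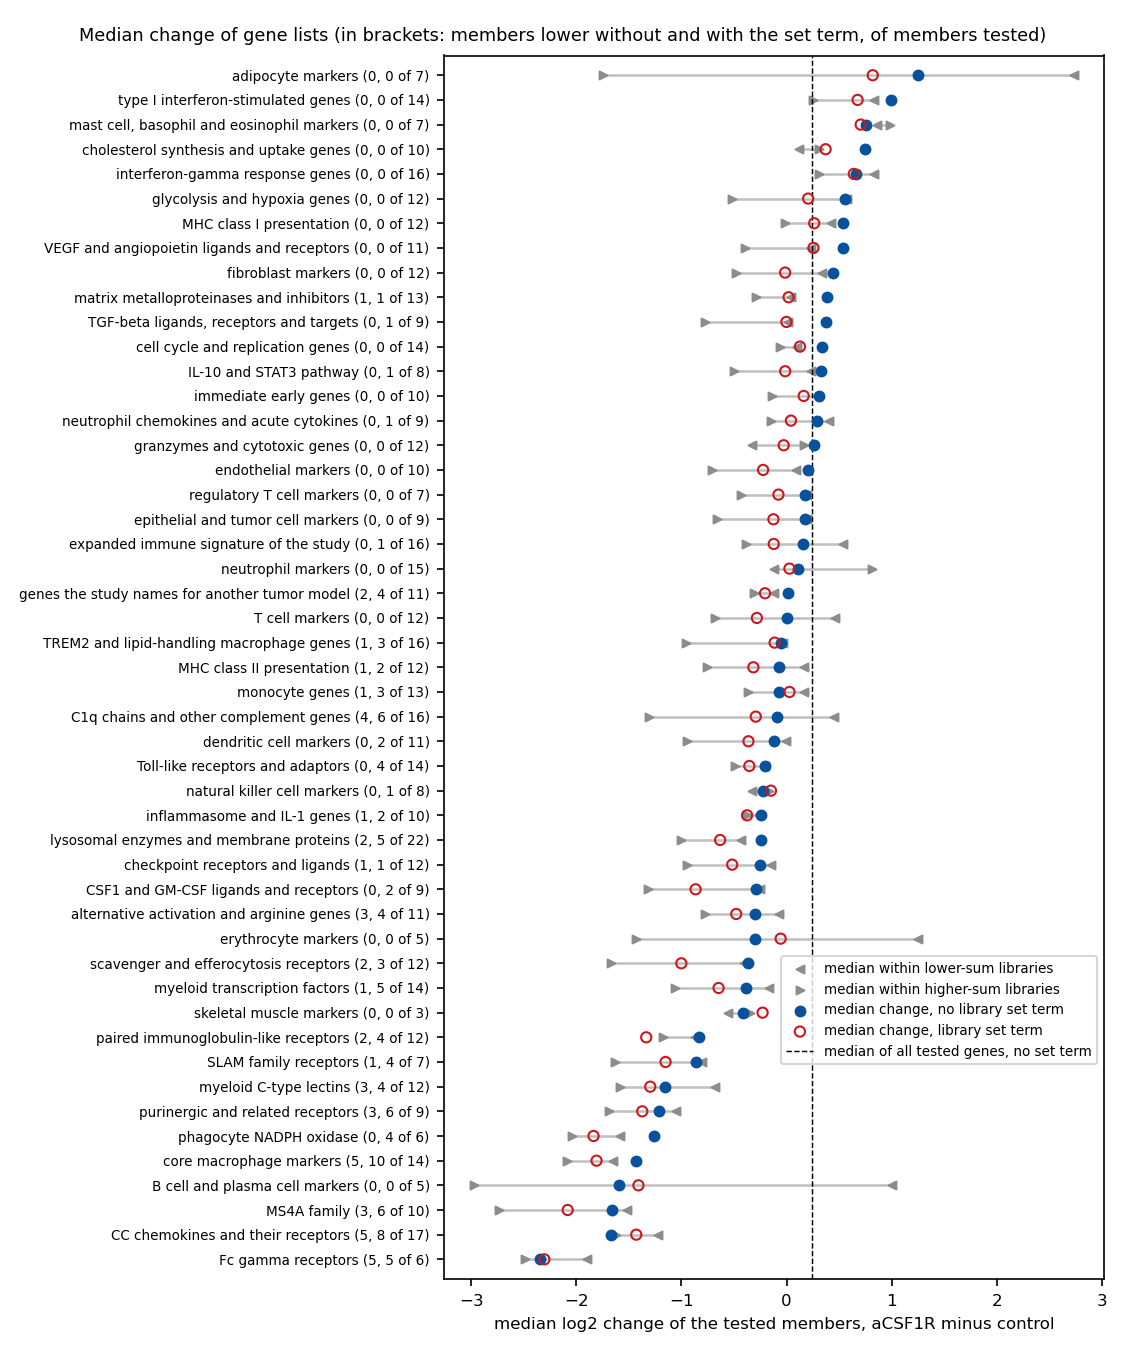
Median log2 change of the tested members of each of the 49 gene lists, aCSF1R minus control; filled circles are the fit without and open circles with the library set term, triangles the change within each library set, and the dashed line the median of all genes without the term at 0.24. The 10 lowest lists, from -2.34 (Fc gamma receptors) to -0.83 (paired immunoglobulin-like receptors), are 9 lists of receptors, chemokines, oxidase subunits and macrophage markers and the B cell list, whose within-set medians have opposite signs.

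No gene was higher without the library set term. With it, 12 were, and 5 of these belonged to a single family, the guanylate-binding proteins, interferon-induced GTPases that act against intracellular microbes. The family was picked out after its values were seen. In 8 of the 10 tested members the groups did not overlap, against 1.61% of all genes in this direction. For these 8 a positive change within each library set follows from that, and the rest were positive within both sets too. The median change was 0.85 without and 0.76 with the term. With FPKM left unscaled or scaled by the median of ratios, 9 of the 10 remained positive. Gbp6 (chr5:105270702-105293698, GRCm38) was at 32.5, 26.1 and 19.6 TPM in controls and 52.0, 51.8 and 62.4 TPM in treated tumors (1.07 with the term, adjusted p = 0.0265). Gbp3 (chr3:142560026-142573209) was at 70.4, 63.3 and 48.2 TPM and 122, 134 and 90.9 TPM (0.84 with the term, adjusted p = 0.0214). The changes were close to 2-fold and far smaller than those of the lower genes. Gbp5, Gbp9 and Gbp10 were the other calls. Each of the 5 calls was lost in some of the 12 fits with the term that left out a library, in 1 for Gbp5, 4 for Gbp3, 5 for Gbp6, 8 for Gbp10 and 9 for Gbp9. Gbp8 had a change of 0.06, and reads can be shared between the neighbouring copies of each cluster, which makes single values uncertain.

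Igtp, an immunity-related GTPase that interferon also induces, was higher with the set term (0.72, adjusted p = 0.0318), from 61.6 to 114 TPM in controls and 98.6 to 237 TPM in treated tumors. Its groups overlapped between sets and not within them, and its call was lost in 7 of the 12 repeats with a library removed. Across the interferon-gamma response list 3 of 16 genes were higher with the term, Gbp3, Gbp5 and Igtp, and 15 of 16 had a positive change without it (median 0.66). Ifng itself was low, at 0.72 to 1.45 TPM in controls and 1.48 to 1.71 TPM in treated tumors (0.38, adjusted p = 0.893). All 14 type I interferon-stimulated genes had a positive change (median 1.00 without and 0.67 with the term), and 0 of them were called in either fit. Usp18, a negative regulator of interferon signalling, was at 14.8, 16.8 and 8.76 TPM in controls and 25.3, 45.3 and 22.3 TPM in treated tumors (1.12, adjusted p = 0.845), without overlap. MHC class I presentation genes had a median of 0.54 without and 0.26 with the term, and 0 of 12 were called. Within the lower-sum libraries the medians were 0.83 (interferon-gamma list), 0.83 (type I genes) and 0.42 (MHC class I). Within the higher-sum libraries, with 1 treated tumor, they were 0.31, 0.25 and -0.013 in the same order.

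Of the 12 genes 5 had a promoter window. The interferon-stimulated response element letters (GAAA, any 2 bases, GAAA), on either strand, occurred in 3 of these 5, Gbp3, Gbp5 and Igtp, and in 4.00% of all tested genes with a window. They also occurred in 8 of the 66 lower genes with a window (12.1%). The same 200 bases before the start are shown for the 3, with the letters and their reverse complement in capitals; they begin 45 and 39 bases before the start in Gbp3, where both matches overlap, 165 in Gbp5 and 34 in Igtp.
Gbp3, chr3:142559844-142560043 (plus strand): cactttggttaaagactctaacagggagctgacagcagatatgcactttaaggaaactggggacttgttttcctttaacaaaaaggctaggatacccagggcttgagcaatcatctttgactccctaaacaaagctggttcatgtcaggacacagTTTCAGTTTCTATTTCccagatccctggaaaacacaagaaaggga
Gbp5, chr3:142496734-142496933 (plus strand): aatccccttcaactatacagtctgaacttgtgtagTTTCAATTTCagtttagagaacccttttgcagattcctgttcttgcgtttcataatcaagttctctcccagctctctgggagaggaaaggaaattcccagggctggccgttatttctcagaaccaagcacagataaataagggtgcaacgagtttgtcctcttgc
Igtp, chr11:58199356-58199555 (plus strand): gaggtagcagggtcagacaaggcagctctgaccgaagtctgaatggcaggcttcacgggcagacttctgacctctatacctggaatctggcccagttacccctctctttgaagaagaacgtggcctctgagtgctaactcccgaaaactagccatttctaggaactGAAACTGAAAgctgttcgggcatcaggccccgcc
The share over so few genes was not tested.

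**Figure D4:**
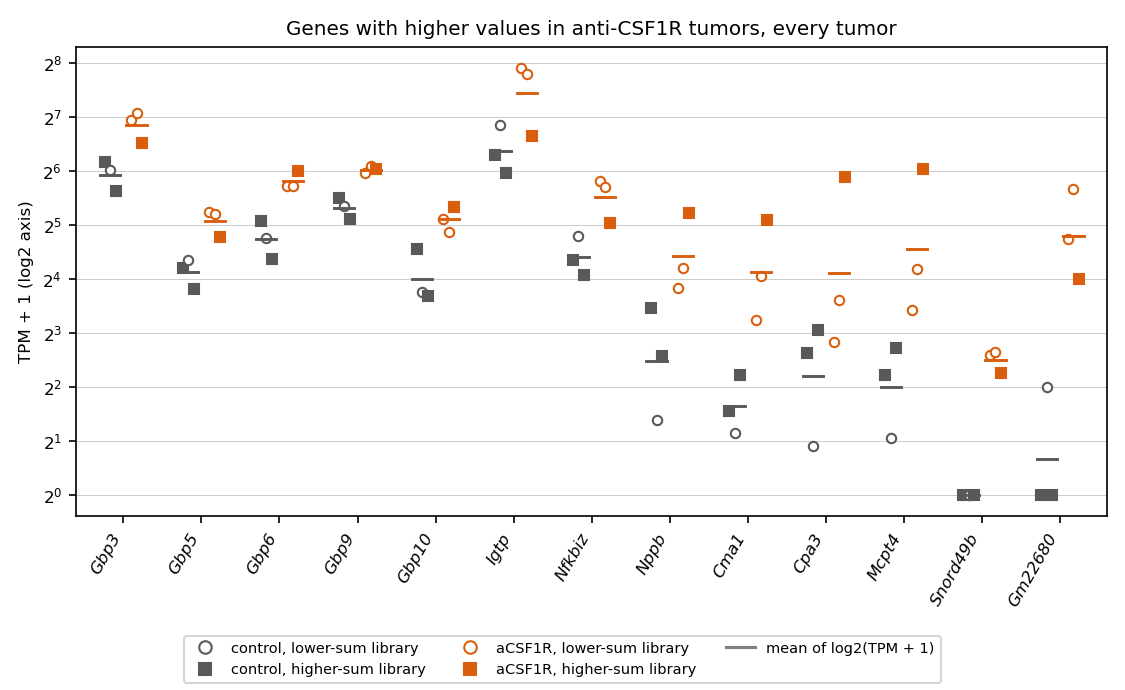
TPM + 1 on a log2 axis in each of the 6 tumors for 13 genes with higher values in aCSF1R tumors; circles are lower-sum and squares higher-sum libraries, grey is control and orange aCSF1R, and bars are means of log2(TPM + 1). The guanylate-binding proteins lie close together within a group, whereas the mast cell genes Cma1, Cpa3 and Mcpt4 spread widely among the treated tumors and are highest in aCSF1R replicate 8.

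Mast cell proteases, serine proteases stored in the granules of these cells, had positive changes larger than those of the guanylate-binding proteins. Cma1, a chymase, was at 1.95, 1.21 and 3.68 TPM in controls and 8.42, 15.6 and 33.1 TPM in treated tumors, 8.36-fold higher in mean TPM, and was called with the set term (2.52, adjusted p = 0.0403) and not without it (2.49, adjusted p = 0.122). Mcpt4, another chymase, was at 3.68, 1.06 and 5.59 TPM and 9.77, 17 and 64.6 TPM and missed the threshold in both fits (adjusted p = 0.275 and 0.0504). Among 7 tested mast cell proteases, a family also chosen after its values were seen, the median change was 2.35 without the term. The groups did not overlap in 4, against 1.61% of all tested genes in this direction. For these 4 a positive change within each set follows from that, and the rest were positive within both sets too. With the term 1 was called, Cma1, against 0.0774% of all tested genes called higher. That call was lost in 7 of the 12 repeats with a library removed. The wider list of mast cell, basophil and eosinophil markers showed less, with 0 calls of 7 tested genes in both fits. Its median change was 0.75 without and 0.70 with the term, 2 of its genes did not overlap, and Ccr3 had a negative change (-0.43). Kit, the stem cell factor receptor of mast cells and other cells, had a change of 0.64 and overlapping groups. Fcer1a, the IgE receptor chain, was at 0.22 to 1.35 TPM in controls and 1.37 to 14.6 TPM in treated tumors (1.52, adjusted p = 0.893).

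The remaining higher genes were few and mixed. Nppb, a natriuretic peptide, was at 10.1, 1.62 and 4.95 TPM in controls and 13.3, 17.3 and 36.2 TPM in treated tumors (2.17 with the term, adjusted p = 0.0156). Nfkbiz, an inducible regulator of NF-kappaB, was at 15.7 to 26.9 TPM and 31.7 to 55.1 TPM (0.90 with the term, adjusted p = 0.0406), and the pseudogene Gm14845 was also called. Leaving out a library ended the call of Nppb in 4, of Nfkbiz in 9 and of Gm14845 in 11 of the 12 fits. The small nucleolar RNA Snord49b was listed at 0 in all 3 controls and at 5.01, 5.26 and 3.78 TPM in treated tumors, and Gm22680, another one at chr19:8725341-8725409, was listed at 0, 2.99 and 0 TPM in controls and at 25.6, 49.5 and 15.1 TPM in treated tumors. Small nucleolar RNAs are mostly not polyadenylated, and the libraries were made from polyadenylated RNA. Gm22680 is also shorter than the 75-base reads, which leaves its values uncertain.

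**Figure D5:**
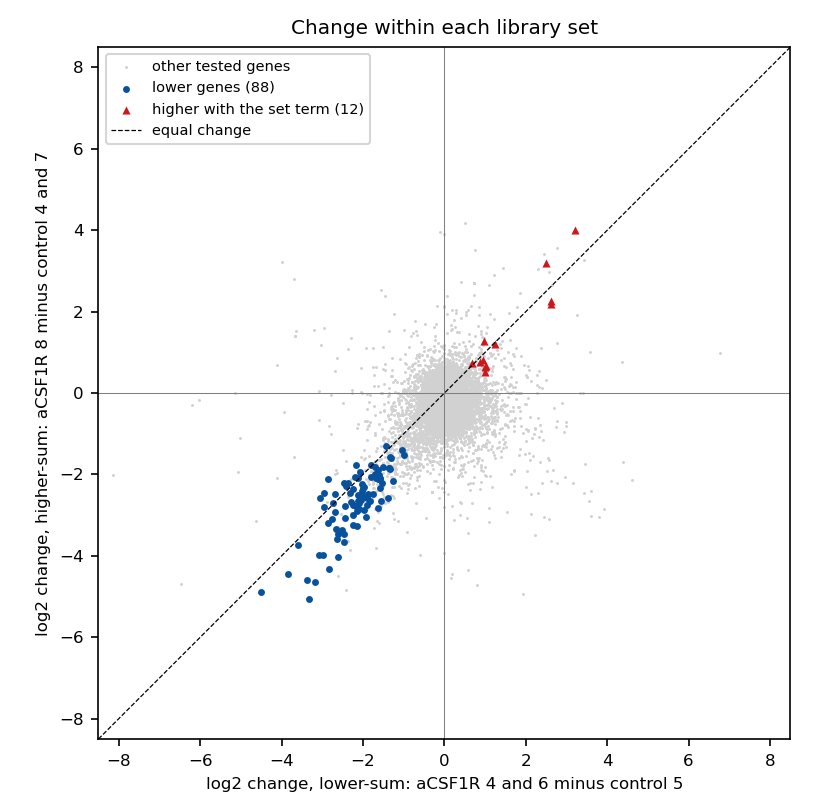
Log2 change within the lower-sum libraries (aCSF1R replicates 4 and 6 minus control replicate 5, x axis) against that within the higher-sum libraries (aCSF1R replicate 8 minus control replicates 4 and 7, y axis) for all 15504 tested genes, with the line of equal change dashed. The 88 lower genes lie in the lower left quadrant and mostly under the line, with medians of -2.12 and -2.55, and the 12 genes higher with the set term lie in the upper right. Over all tested genes the medians were 0.017 and -0.16.

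The levels in the other treatment groups give a scale for these changes; they are side by side here and were not compared. Msr1 was at 121 ± 23.5 TPM in controls and 7.98 ± 0.66 TPM in aCSF1R tumors (SD, n = 3 each), and at 121 ± 20.5 TPM in BF10 and 105 ± 15.7 TPM in IL-10-Fc tumors. Ctss was at 756 ± 210 TPM in controls, 108 ± 9.48 TPM in aCSF1R, 643 ± 96.4 TPM in BF10 and 556 ± 72.1 TPM in IL-10-Fc tumors. Gbp3 was at 60.6 ± 11.3 TPM in controls, 116 ± 22.1 TPM in aCSF1R, 111 ± 11.6 TPM in BF10 and 113 ± 8.24 TPM in IL-10-Fc tumors, and Cma1 at 2.28 ± 1.27, 19.1 ± 12.7, 5.21 ± 3.43 and 2.84 ± 1.62 TPM in the same order.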

How the data were processed

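Total RNA from 12 tumors was sequenced as stranded polyadenylated libraries on an Illumina NextSeq, per the labels; the submitters' processing notes name STAR 2.7.5a, RSEM 1.3.3, DESeq2 1.28.0 and mm10. The authors deposited FPKM, which scales fragments by transcript length and library depth, for 55401 genes; the program that made them is not given in the sources used here. A further 4 tables of the authors hold their own log2 fold changes, p-values and a mean score per gene and were not used. All value columns were matched to samples by name (0 unmatched). No counts are given: the size of a single-read step in genes of 500 to 1500 bases put the 6 libraries at 29400000 to 35800000 reads. FPKM was rescaled to 1000000 per library, genes with at least 1 TPM in at least 3 of 12 libraries were kept (15504), and log2(TPM + 1), which understates changes of low genes, was fitted with limma 3.58.1 (eBayes with trend, R 4.3.3), 1 mean per group, 8 residual degrees of freedom, adjusted p by Benjamini-Hochberg. The script was tested on simulated data. Positions are GENCODE M21 (GRCm38). Genes were named from among the 25 largest falls without overlap, the 5 higher genes of smallest p and the 10 largest rises with the library set term. Called members of 49 lists, the CSF1 family and list extremes were further sources, and not every gene of these groups is printed. Others named (mast cell proteases, guanylate-binding proteins and further list members) were chosen after their values were seen. The comparison and the lists were chosen with earlier results of these data known, so no count over a list is independent evidence. A list the study chose (its 16-gene signature) had 0 calls without and 1 with the set term (Tagap). Of 11 tested genes it names for another model, 2 were lower without and 4 with the term (Clec4a2, Slamf9, Dpep2 and Lilra5). Clec4a2 stands for the Clec4a the study names, a match made here. In that model the study reports these 4 as lower after anti-CSF1R. Clec4b1, which it names with them, was under the filter. It reports the other genes of the list as higher after IL-10-Fc and BF10 and not after anti-CSF1R. Alternatives are in the closing section. Some items are not reported here.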

Additional observations from a re-analysis of the deposited data

How the results depend on the processing

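Without the set term, and in the fit of all 12 libraries with it, those of the 88 lower genes that were tested kept a negative change under each alternative; single genes were not followed through the other fits with the term. Without the set term, 134 genes were lower with median of ratios scaling (56 of the 88 among them), 4 when only the 6 libraries compared were fitted (Ccl12, C1qc, Msr1 and Lyz2) and 1161 with sample quality weights, which also gave 8737 higher genes; those weights fell lowest on aCSF1R replicate 8 (0.0736) and control replicate 5 (0.112), the tumors alone in their set within a group. A pseudocount of 0.1 gave 95, unscaled FPKM 125, no minimum level 76, a minimum of 5 TPM 85 and no trend 94. Leaving out 1 library gave 55 to 89 lower genes, the fewest when aCSF1R replicate 6 (55), control replicate 4 (58) or control replicate 7 (60) was removed, and 52 of the 88 were called in all 12 such fits. With the set term 300 genes were lower, 235 with the 6 libraries only and 340 with median of ratios scaling, both chosen after seeing the data, and 178 to 365 without 1 library, the fewest when aCSF1R replicate 8 (178) or control replicate 5 (193) was removed. The cause of these shifts was not tested.

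Higher genes numbered 0 without the set term, 1 with a pseudocount of 0.1 (Mirlet7d), with unscaled FPKM and with median of ratios scaling (Gm22680), 2 with no minimum level (Rnu11 and Tph1) and 0 to 2 without 1 library. With the set term they numbered 12, 18 with the 6 libraries only, 14 with median of ratios scaling and 2 to 21 without 1 library; removing aCSF1R replicate 6 or control replicate 5 left 2, control replicate 7 left 3, IL-10-Fc replicate 2 left 6 and control replicate 4 gave 21. Gm22680, which is shorter than the reads, was the only gene called higher in all 12 of these fits. Of the 300 lower genes, 150 were called in all 12. Sample quality weights turned the sign of Itgam (0.22), Irf5 (0.13) and P2ry6 (0.58), and P2ry6 ranged from -0.86 to 0.18 when 1 library was left out (0.18 without aCSF1R replicate 8). No paired analysis was possible because nothing in the labels pairs a treated tumor with a control. FPKM without counts gives no counting interval, and with 3 tumors a side and a median SE of 0.43 (0.23 with the set term) small changes could not be resolved.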
